A study of Mus musculus with 76 samples.

Results

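The adipokines are hormones and secreted proteins of fat cells, and 6 of their genes were followed here together with the genes of the 2 adiponectin receptors. The members were chosen by symbol from the tables of visceral white adipose tissue (WAT) and liver: *Adipoq* (adiponectin), *Lep* (leptin), *Retn* (resistin), *Cfd* (complement factor D, or adipsin), *Rbp4* (retinol-binding protein 4), *Nampt* (nicotinamide phosphoribosyltransferase, or visfatin), *Adipor1* and *Adipor2*. All 8 were among the 18964 rows of the WAT table, and 5 were among the 16775 rows of the liver table, which has no row for *Adipoq*, *Lep* or *Retn*.

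The samples came from female C57BL/6 mice with free access to food and drink, homozygous either for the ancestral allele of *Fnip2* (Fnip2T/T) or for an engineered C allele (Fnip2C/C), and the comparison asks how expression in these tissues differs with that allele. *Fnip2* encodes folliculin-interacting protein 2, a partner of folliculin in nutrient sensing. The C allele was made in zygotes with CRISPR/Cas9, is carried by every cell of the animal, and holds a further G-to-C change that disrupts the PAM, so that the Fnip2C/C mice differ from the Fnip2T/T mice at both bases. WAT was sequenced from 4 Fnip2C/C and 5 Fnip2T/T mice and liver from 5 of each, with 6 mice giving both tissues, and the ages of these mice are not given in the sources used here. Libraries were primed with oligo(dT), so a read marks the tail end of a transcript. *Fnip2* itself had log2 fold changes of -0.27 in WAT and 0.63 in liver and was called in neither (limma adjusted p = 0.580 and 1), and the tables do not read the edited base.

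Adiponectin is made almost only by adipocytes, is assembled into multimers in the endoplasmic reticulum, and acts through ADIPOR1 and ADIPOR2, which are linked to AMPK, PPARα and ceramidase activity. Leptin reports fat stores to the brain, resistin opposes insulin action in mice, and adipsin is the protease that starts the amplification step of the alternative complement pathway. RBP4 carries retinol in blood and comes mainly from hepatocytes, whereas NAMPT, made by most cells, is the rate-limiting enzyme of NAD salvage.

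Before the members, the libraries themselves were compared. The reads assigned to genes, recovered from the normalized counts, lay between 4180209 and 6277644 per WAT library and between 5583041 and 7523200 per liver. One WAT library stood apart: in the Fnip2C/C mouse 593 the 11 ovary markers in the table summed to 25271 normalized counts, against 34.6 to 121 in the other WAT libraries, led by *Cyp11a1* at 15068. The 16 adipocyte markers in the table, none of them a member, summed to between 86529 (mouse 593) and 219791 in Fnip2C/C WAT and to between 215863 and 456279 in Fnip2T/T WAT, and 7 of the 16 were called lower and 1 higher in Fnip2C/C, where 17.0% of all WAT genes were called lower and 32.1% in either direction. The hepatocyte markers in liver summed to between 872923 and 1071510, led by *Alb*, so both tissues carried the markers of their label. In WAT the hepatocyte markers summed to 234 to 708 in Fnip2C/C and 847 to 2913 in Fnip2T/T mice, without overlap. That sum mostly follows *Cyp2e1*, with a mean of 924 over the WAT libraries against 124 for *Alb* and 17.1 for *Apoc3*. The macrophage markers summed to 3151 to 6351 and 3092 to 4898. *mt-Nd4*, a mitochondrial transcript among the most abundant in WAT, took 1.04% to 2.58% of the reads of Fnip2C/C WAT libraries and 4.05% to 8.13% of those of Fnip2T/T WAT libraries. The mitochondrial *mt-Rnr2* lay the other way, at 4.48% to 11.7% and 2.89% to 8.53%, and was not called (log2 fold change 0.83, limma adjusted p = 0.161). *C1qa* and *C1qc*, which encode subunits of 1 complement complex of macrophages, were called in opposite directions in WAT, at 1.06 and -1.70 on the log2 scale, and were chosen for mention after their values were seen. *C1qb*, for another subunit of that complex, was at 0.28 and was not called (limma adjusted p = 0.429). The part of any of these values in the results below was not tested, apart from the values given without mouse 593 and the scalings to adipocyte markers.

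RefSeq promoter windows of 300 bases, 250 before and 50 after each annotated start on build GRCm38.p6, were found for all 8 members, with 10 windows in all since *Adipor1* and *Rbp4* have 2 starts each. They were searched on both strands for 6 motifs that were chosen with the transcription of adipokine genes in mind: TATAAA (the TATA box), CACGTG (the E-box), TTGCGCAA (a palindrome bound by C/EBP factors), CCAAT, TGACGTCA (the cAMP response element) and GGGCGG (the GC box), of which no motif contains another. The stretches shown hold the motif that was least common among all windows in a member window, the TATA box, and the CCAAT pair of *Adipoq*, each printed 5′ to 3′ on the strand of the gene with the motif in capitals.
Lep: tggccggacagTTGCGCAAgtggcactggg
Rbp4: tccccccggagcTATAAAggaccgacggcc
Adipoq: ctcATTGGctATTGGccttgactgggttgg

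The *Lep* stretch lies at chr6:29060155-29060184 on the plus strand, where TTGCGCAA starts 55 bases before the transcript start, and 0.183% of all 32851 windows hold this motif. The *Rbp4* stretch lies at chr19:38124822-38124851 on the minus strand, with TATAAA starting 28 bases before the start, a motif that 13.6% of windows hold. In *Adipoq*, at chr16:23146499-23146528 on the plus strand, CCAAT stands on the opposite strand and reads as ATTGG, starting 34 and 27 bases before the start, and a further CCAAT on the gene's strand starts 7 bases before it. CCAAT was present in windows of 3 members and in 37.4% of all windows. GGGCGG was found in windows of 4 members, *Adipor1*, *Lep*, *Nampt* and *Rbp4*, and in 35.7% of all windows, and CACGTG and TGACGTCA in no member's window against 7.15% and 1.79% of all windows. The windows of *Retn*, *Cfd* and *Adipor2* held none of these 6 strings of letters.

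In WAT, 4 of the 8 members were lower in Fnip2C/C than in Fnip2T/T mice at an adjusted p under 0.05 and none was higher. The 4 were *Lep*, *Retn* and *Adipoq*, which are hormones of fat cells, and the receptor gene *Adipor2*. The test was limma on log2(normalized count + 1) with Benjamini-Hochberg adjustment over the 12798 genes with a mean of at least 10. Among all those genes, 32.1% were called in either direction and 17.0% were called lower in Fnip2C/C. In a bulk tissue sample, fewer cells of a type and less RNA per cell cannot be told apart.

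**Figure D1:**
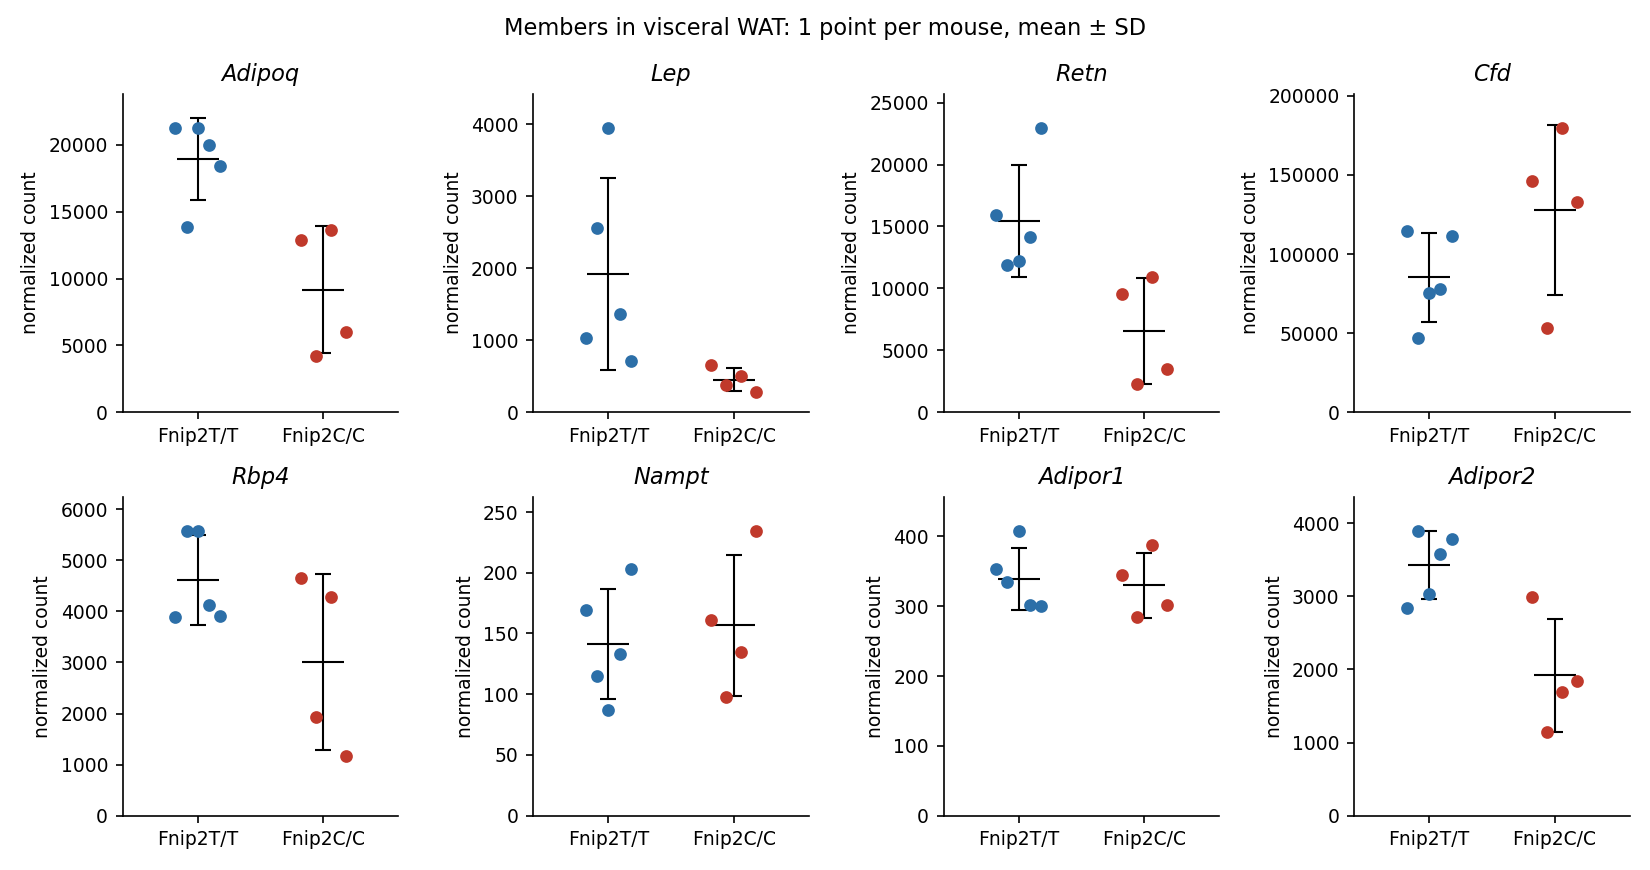
Normalized counts (vertical axes, linear and from 0) of the 8 members in visceral WAT, with 1 point per mouse, horizontal bars at the group means and whiskers of 1 SD, for 5 Fnip2T/T and 4 Fnip2C/C mice. The genotypes do not overlap in the panels of *Adipoq*, *Lep* and *Retn*, overlap through 1 Fnip2C/C mouse in that of *Adipor2*, and overlap widely in those of *Nampt* and *Adipor1*.

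*Adipoq*, the most specific adipocyte hormone of the set, had normalized counts of 12870.2, 4216, 13622 and 5989 in the Fnip2C/C mice 590, 593, 599 and 638. In the Fnip2T/T mice 607, 608, 609, 657 and 658 they were 21245, 13869, 21290.2, 20023 and 18393. Every Fnip2C/C library was below every Fnip2T/T library, although mice 599 and 608 were close to each other, and mice 593 and 638 were far below the other Fnip2C/C mice. The group means, 9174 ± 4767 (SD, n = 4) and 18964 ± 3083 (SD, n = 5), gave on the log2 scale a difference of -1.20 (SE 0.34, limma adjusted p = 0.0179; exact two-sided permutation p = 0.00794, the smallest that 126 groupings allow). The Fnip2C/C level was 43.5% of the Fnip2T/T level by this estimate. Without mouse 593 the value was -0.88 (limma adjusted p = 0.0428), and without mouse 638 it was -1.05 and no longer called (limma adjusted p = 0.0586).

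*Lep*, whose transcription follows the size and filling of fat cells, showed the largest difference of the members. Its counts were 656, 379, 495 and 279.9 in Fnip2C/C mice 590, 593, 599 and 638 and 1024, 2552, 3949, 1362.5 and 705 in Fnip2T/T mice 607, 608, 609, 657 and 658. The highest Fnip2C/C value was just under the lowest Fnip2T/T value, and the Fnip2T/T mice ranged over 5.60-fold among themselves. The means were 453 ± 162 (SD, n = 4) and 1919 ± 1333 (SD, n = 5), and the log2 fold change was -1.87 (SE 0.44, limma adjusted p = 0.00769; exact two-sided permutation p = 0.0159). It was -1.81 without mouse 593 (limma adjusted p = 0.0228) and -1.67 without mouse 638 (limma adjusted p = 0.0364).

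*Retn* counts were 9582, 2265, 10897 and 3474 in Fnip2C/C mice 590, 593, 599 and 638 and 15911, 11879.8, 12248, 14175 and 22985 in Fnip2T/T mice 607, 608, 609, 657 and 658. As for *Adipoq*, mice 593 and 638 were the lowest and the genotypes did not overlap. Fnip2C/C mice averaged 6554 ± 4317 (SD, n = 4) and Fnip2T/T mice 15439.8 ± 4517 (SD, n = 5), so the log2 fold change was -1.48 (SE 0.43, limma adjusted p = 0.0190; exact two-sided permutation p = 0.00794). It was -1.07 without mouse 593 (limma adjusted p = 0.0435) and -1.28 without mouse 638, where it was no longer called (limma adjusted p = 0.0657). The 3 members whose genotypes did not overlap, *Adipoq*, *Lep* and *Retn*, were all lower in Fnip2C/C, and 13.8% of all genes tested in WAT were lower in Fnip2C/C without overlap.

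*Rbp4* in WAT was 4657, 1924, 4287 and 1172 in Fnip2C/C mice 590, 593, 599 and 638 and 3899, 5573, 5566, 4132 and 3917 in Fnip2T/T mice 607, 608, 609, 657 and 658. Mice 593 and 638 were again lowest, while mice 590 and 599 stood inside the Fnip2T/T range. The log2 fold change was -0.81 (SE 0.36) and was not called (limma adjusted p = 0.101; exact two-sided permutation p = 0.111), with a 95% interval from -1.59 to -0.032 before adjustment for the number of genes. Without mouse 638 the *Rbp4* value was -0.43 (limma adjusted p = 0.313). *Rbp4* was called lower without mouse 590 (-1.10, limma adjusted p = 0.0327), under quantile normalization (-1.03, limma adjusted p = 0.0427) and with a term for mouse numbers (-0.93, limma adjusted p = 0.0422).

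*Cfd* was the most abundant member, with 10248 to 37457 RPM in the WAT libraries, where RPM is reads scaled to a library total of 1000000 reads assigned to genes. Its normalized counts were 146083, 53287, 179926 and 132692 in Fnip2C/C mice 590, 593, 599 and 638 and 114349, 47107, 75246, 77912 and 111450 in Fnip2T/T mice 607, 608, 609, 657 and 658. Apart from mouse 593, each Fnip2C/C library was above each Fnip2T/T library. The log2 fold change was 0.52 (SE 0.39, limma adjusted p = 0.325; exact two-sided permutation p = 0.262), with a 95% interval from -0.32 to 1.37, and without mouse 593 it was 0.90 (limma adjusted p = 0.0590).

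*Nampt* ranged from 97.3 to 234 normalized counts in Fnip2C/C WAT and from 87.1 to 203 in Fnip2T/T WAT, with a log2 fold change of 0.14 (95% interval -0.47 to 0.75, limma adjusted p = 0.737). The direction of this value turned under library weights and when mouse 638 or mouse 609 was left out.

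Of the receptors, *Adipor2*, which is linked to PPARα, was 2993, 1138, 1695 and 1841 in Fnip2C/C mice 590, 593, 599 and 638. In Fnip2T/T mice 607, 608, 609, 657 and 658 it was 2845, 3891, 3031, 3584 and 3780.2. One Fnip2C/C mouse, 590, lay above the lowest Fnip2T/T mouse, and the others lay below all of them. Fnip2C/C mice averaged 1917 ± 779 (SD, n = 4) and Fnip2T/T mice 3426 ± 464 (SD, n = 5), so the log2 fold change was -0.91 (SE 0.26, limma adjusted p = 0.0165; exact two-sided permutation p = 0.0159), which was -0.69 without mouse 593 (limma adjusted p = 0.0413). *Adipor1*, the receptor linked to AMPK, lay between 285 and 388 normalized counts in Fnip2C/C and between 300.1 and 407 in Fnip2T/T mice. Its log2 fold change was -0.042 (95% interval -0.40 to 0.32, limma adjusted p = 0.865), an interval of 0.756-fold to 1.25-fold at the deposited scaling. The sign of the *Adipor1* value turned under library weights, under each scaling to adipocyte markers, and without mouse 593 or mouse 609.

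**Figure D2:**
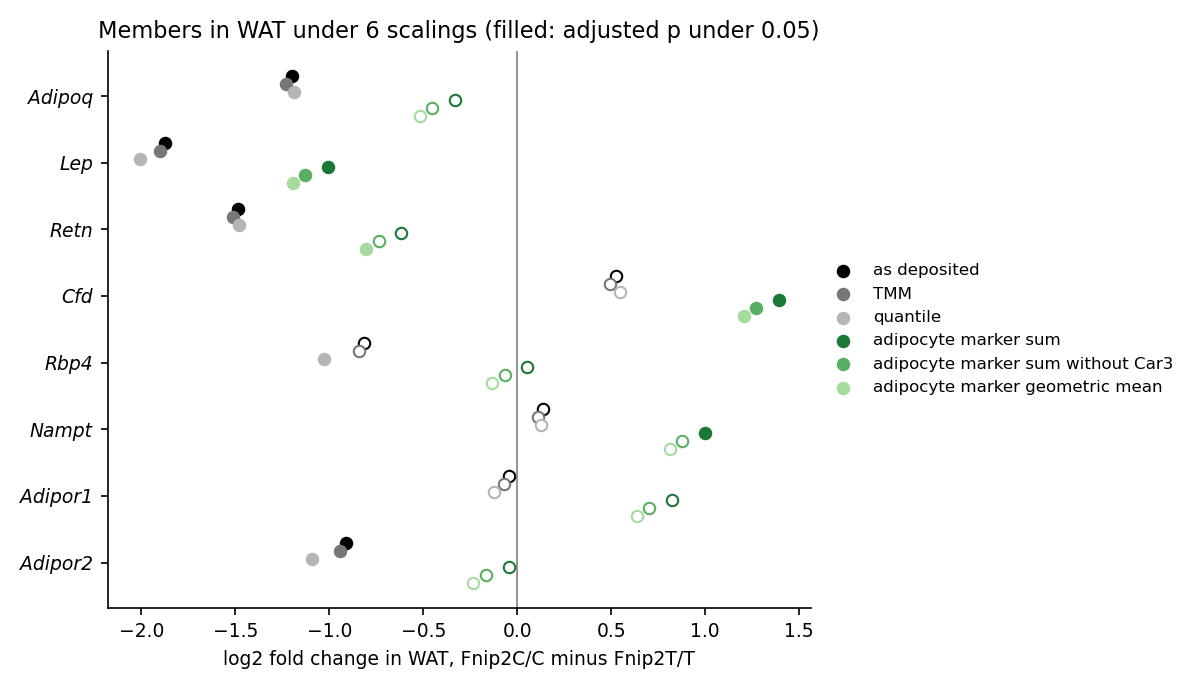
Log2 fold change of each member in WAT (horizontal axis, Fnip2C/C minus Fnip2T/T) under 6 scalings of the libraries, with filled points at an adjusted p under 0.05 and open points above it. Scaling to adipocyte markers (green) moved every member to the right, *Lep* stayed called lower in all 6 scalings, and *Cfd* was called higher in the 3 adipocyte scalings.

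Since the summed adipocyte markers were lower in Fnip2C/C WAT, with 1 Fnip2C/C library inside the Fnip2T/T range, the members were also compared per adipocyte marker count. *Car3* made up 52.4% to 72.0% of that sum, so 2 further scalings, one without *Car3* and one to the geometric mean of the markers, were added after the data were seen. *Lep* remained called lower in all 3, at -1.01, -1.13 and -1.19 (limma adjusted p = 0.0244, 0.0258 and 0.0240). *Adipoq* was at -0.33, -0.45 and -0.52 and was called in none of them (limma adjusted p = 0.471, 0.248 and 0.139), and *Adipor2* was at -0.045, -0.17 and -0.23 and was called in none (limma adjusted p = 0.931, 0.696 and 0.521). *Retn* was at -0.62, -0.74 and -0.80 and passed only with the geometric mean (limma adjusted p = 0.161, 0.0819 and 0.04999). *Cfd* was called higher in Fnip2C/C in all 3, at 1.39, 1.27 and 1.21 (limma adjusted p = 0.00131, 0.00304 and 0.00377). *Nampt* was called higher only with the marker sum, at 1.00 (limma adjusted p = 0.0446). In these 3 scalings 5309, 4888 and 5026 of all 12798 genes were called in either direction, beside 3, 2 and 3 of the 8 members. Each scaling changed all genes of a library by the same factor, so it raised the value of every member, since the markers were lower in Fnip2C/C. How many of all genes were called higher in these scalings was not counted. The calls of *Cfd* and *Nampt* as higher therefore stand without that share beside them.

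The same contrast could be read within each library, as reads of a member per 100 reads of *Adipoq*. For *Cfd* this was 1135, 1264, 1321 and 2216 in Fnip2C/C mice 590, 593, 599 and 638 and 538, 339.6, 353, 389 and 606 in Fnip2T/T mice 607, 608, 609, 657 and 658, so the genotypes were apart and mouse 593 was among the other Fnip2C/C mice. For *Adipor1* it was 2.68 to 6.75 and 1.51 to 2.41, also without overlap. *Adipoq* itself was lower in Fnip2C/C without overlap, so a gene whose own counts overlap, such as *Adipor1*, can separate in this ratio. The share of all genes that separate in it was not computed. The ranges of the other 5 members overlapped between the genotypes, with medians in Fnip2C/C and Fnip2T/T of 66.2 and 74.9 for *Retn*, 4.89 and 6.81 for *Lep*, 33.8 and 21.3 for *Rbp4*, 25.1 and 17.9 for *Adipor2*, and 1.78 and 0.796 for *Nampt*. These ratios are a description, with no test. That of *Cfd* lay apart between the genotypes in these libraries, without showing which of *Cfd* and *Adipoq* moved.

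By level, the order in WAT was *Cfd* with a mean of 22297 RPM, then *Adipoq* with 3182, *Retn* with 2498, *Rbp4* with 842, *Adipor2* with 597, *Lep* with 273, *Adipor1* with 72.4 and *Nampt* with 31.9 (n = 9 libraries each). The protocol reads 1 end of each transcript, so these counts were not divided by gene length, though priming can differ between 3′ ends. The ranges over the 9 libraries overlapped between each pair of neighbours from *Adipoq* down to *Lep* and between *Adipor1* and *Lep*, whereas *Cfd* lay above the *Adipoq* range and *Nampt* below that of *Adipor1*. Spread within a genotype differed between members: the coefficient of variation in Fnip2C/C WAT was 65.9% for *Retn*, 57.2% for *Rbp4*, 52.0% for *Adipoq* and lowest, at 14.03%, for *Adipor1*, while in Fnip2T/T WAT it was highest for *Lep* at 69.5% and between 13.0% and 32.9% for the rest.

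Profiles over the 9 WAT libraries were compared as log2 values centred on each gene's own mean, by the root mean square difference. Nearest to *Adipoq* among the genes tested were *Cav1* (caveolin-1, abundant in adipocyte membranes) at 0.205, *Gypc* at 0.213, *Tshr* (the thyrotropin receptor) at 0.215, *Bche* (butyrylcholinesterase) at 0.216 and *Mfng* at 0.218, against a median of 0.908 over all genes. The closest other member was *Retn*, at 0.350, with *Rbp4* at 0.462 and *Adipor2* at 0.463. *Lep* had no neighbour as near: *Lbp* (lipopolysaccharide-binding protein) stood at 0.419, *Cav2* at 0.426, *Serpina3n* at 0.440, *Gper1* at 0.473 and *Fads3* at 0.474, against a median of 1.27. *Adipoq* stood at 0.851 from *Lep*. All these genes share the libraries, their scaling and the genotype difference with the members, so likeness here is a description.

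**Figure D3:**
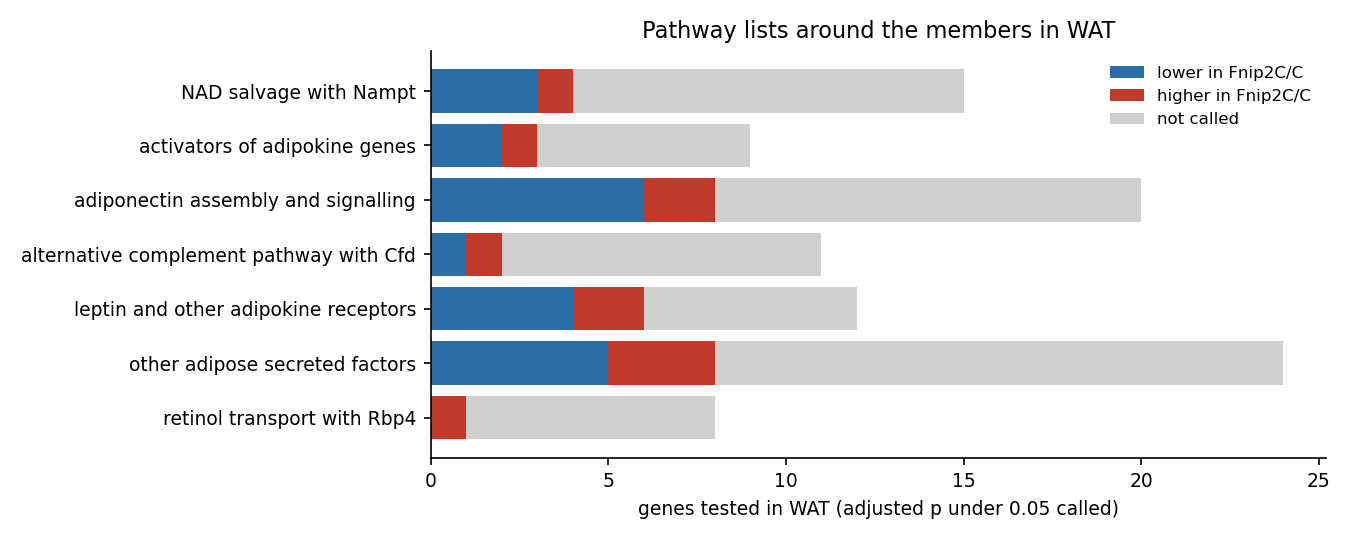
Number of genes tested in WAT (horizontal axis) in each of the 7 pathway lists around the members, divided into those called lower in Fnip2C/C, called higher and not called at a limma adjusted p under 0.05. The list of adiponectin assembly and signalling holds 6 lower and 2 higher of 20 tested genes, and that of retinol transport holds 1 higher of 8.

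In the list of adiponectin assembly and signalling, 6 of 20 tested genes fell and 2 rose in Fnip2C/C WAT, 40.0% called against the 32.1% of all genes, with a median log2 fold change of -0.36 against 0.019 over all genes. *Mapk14* (p38α, a kinase downstream of the adiponectin receptors) ranged from 66.4 to 165 normalized counts in Fnip2C/C and from 247 to 420 in Fnip2T/T WAT, and fell by 1.78 on the log2 scale (SE 0.25, limma adjusted p = 0.000804). *Appl1*, the adaptor that binds the intracellular part of both receptors, went the other way, from 354 to 631 in Fnip2C/C and from 225 to 329 in Fnip2T/T, with a log2 fold change of 0.83 (SE 0.19, limma adjusted p = 0.00718). *Asah1*, the lysosomal acid ceramidase, rose by 1.20 (SE 0.27, limma adjusted p = 0.00523), with ranges of 128 to 360 and 93.2 to 129 that just overlapped. Receptor, adaptor and kinase of the same pathway were thus not called in 1 direction.

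Among the transcription factors known to drive adipokine genes, 2 of 9 fell and 1 rose, 33.3% called against 32.1% of all genes. *Klf15*, a factor of adipocyte lipid genes, ranged from 3.74 to 34.1 in Fnip2C/C and from 40.2 to 109 in Fnip2T/T WAT (log2 fold change -2.002, SE 0.51, limma adjusted p = 0.0109). *Cebpb*, whose protein binds motifs of the kind shown for *Lep*, fell by 0.81 (SE 0.28, limma adjusted p = 0.0412), with overlapping ranges of 83.3 to 156 and 127 to 329. *Nfe2l2* (NRF2, the regulator of antioxidant genes) rose by 0.90 (SE 0.19, limma adjusted p = 0.00458), from 279 to 405 in Fnip2T/T to between 517 and 875 in Fnip2C/C.

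Of 12 tested genes of leptin and other adipokine receptors, 4 fell and 2 rose, 50% called against 32.1% of all genes. *Leprot*, whose product lowers leptin receptor at the cell surface and whose first exons are shared with *Lepr*, ranged from 640 to 997 in Fnip2C/C and from 206 to 399 in Fnip2T/T WAT (log2 fold change 1.62, SE 0.22, limma adjusted p = 0.000724). *Aplnr*, the apelin receptor, fell by 1.68 (SE 0.39, limma adjusted p = 0.00672), with 13.1 to 24.7 against 32.0 to 118. *Cmklr1*, the chemerin receptor, fell by 0.84 (SE 0.20, limma adjusted p = 0.00812), with 271 to 465.7 against 585 to 873.

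Around *Cfd*, 1 of 11 tested genes of the alternative complement pathway rose and 1 fell, 18.2% called against 32.1% of all genes. *C3*, the component that the pathway cleaves, rose by 0.84 (SE 0.26, limma adjusted p = 0.0281), with 5857 to 9740.4 in Fnip2C/C and 3254 to 7303 in Fnip2T/T. *Cd59a*, which shields host cells from the membrane attack complex, had the lowest p of the list: 167 to 438 against 1035 to 1311, a log2 fold change of -2.07 (SE 0.27, limma adjusted p = 0.000599). *Vtn* (vitronectin, an inhibitor of the same complex) had a log2 fold change of -0.66 and was not called (limma adjusted p = 0.0885).

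Around *Rbp4*, 1 of 8 tested genes of retinol transport and metabolism rose and none fell, 12.5% called against 32.1% of all genes. It was *Adh1*, an alcohol dehydrogenase that oxidizes retinol, with 4276 to 7041 in Fnip2C/C and 2585 to 4103 in Fnip2T/T (log2 fold change 0.63, SE 0.22, limma adjusted p = 0.0467). *Retsat* (retinol saturase) had a log2 fold change of -0.60 and was not called (limma adjusted p = 0.0765).

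Around *Nampt*, 3 of 15 tested genes of NAD salvage and use fell and 1 rose, 26.7% called against 32.1% of all genes. *Pnp* (purine nucleoside phosphorylase) ranged from 69.3 to 139 in Fnip2C/C and from 180.4 to 237 in Fnip2T/T (log2 fold change -1.18, SE 0.21, limma adjusted p = 0.00205). The mitochondrial deacetylase gene *Sirt3* ranged from 25.8 to 31.8 and from 52.5 to 71.4 (log2 fold change -1.08, SE 0.21, limma adjusted p = 0.00293), and *Sirt2* fell by 0.84 (SE 0.26, limma adjusted p = 0.0250).

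Of 24 other tested genes for factors secreted by adipose tissue, 5 fell and 3 rose, 33.3% called against 32.1% of all genes. *Metrnl* (meteorin-like) ranged from 7.03 to 15.3 in Fnip2C/C and from 26.8 to 50.8 in Fnip2T/T (log2 fold change -1.75, SE 0.32, limma adjusted p = 0.001997). *C1qtnf12* (adipolin, a paralogue of adiponectin) fell by 1.11 (SE 0.21, limma adjusted p = 0.00257) and *Ccdc80* by 0.86 (SE 0.25, limma adjusted p = 0.0191). Over all 7 lists the called genes went in both directions except in that of retinol transport.

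In liver, none of the 4 members tested was called, and no gene of the 11710 tested was called (0% by limma, with 231 genes at an unadjusted p under 0.05, and 0 genes by edgeR and by DESeq2). No gene of the 7 lists was called there. The columns of both tables stand in a block of even and a block of odd library numbers. In liver each block mixes the labelled genotypes. In WAT the labelled even libraries are all Fnip2C/C and the odd ones all Fnip2T/T. Genotype in WAT therefore cannot be told apart from any handling that followed these numbers. The tables do not read the edited base, so the labels of neither tissue could be checked. The WAT, liver and interaction results rest on them as given.

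**Figure D4:**
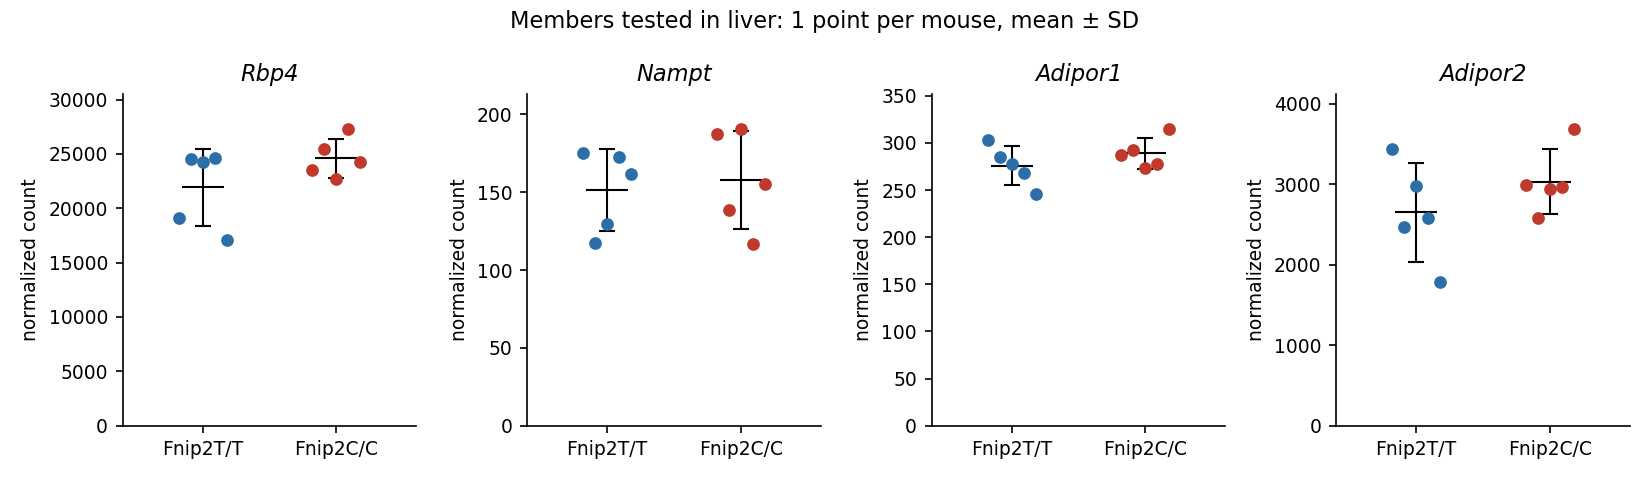
Normalized counts (vertical axes, linear and from 0) of the 4 members tested in liver, with 1 point per mouse, horizontal bars at the group means and whiskers of 1 SD, for 5 Fnip2T/T and 5 Fnip2C/C mice. The genotypes overlap in all 4 panels, and *Rbp4* lies between 17125 and 27284.

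*Rbp4*, whose main source is the hepatocyte, had 23502, 25408, 22689, 27284 and 24211 normalized counts in Fnip2C/C mice 590, 591, 592, 638 and 639. In Fnip2T/T mice 607, 608, 657, 658 and 659 it had 19143, 24492, 24224, 24591 and 17125. The Fnip2T/T mice 607 and 659 were the lowest and the other 8 livers lay close together. The log2 fold change was 0.18 (95% interval -0.10 to 0.46, limma adjusted p = 1; exact two-sided permutation p = 0.222). *Adipor2* had 2989, 2579, 2935, 2966 and 3684 in these Fnip2C/C mice and 3435, 2472, 2983, 2578 and 1789 in these Fnip2T/T mice. Mouse 659 was lowest and mouse 639 highest, and the rest were mixed (log2 fold change 0.22, 95% interval -0.11 to 0.55, limma adjusted p = 1; exact two-sided permutation p = 0.254). *Adipor1* was the steadiest member, between 246 and 315 in all 10 livers (log2 fold change 0.068, 95% interval -0.16 to 0.30, limma adjusted p = 1), and *Nampt* lay between 117 and 190.5 (log2 fold change 0.055, 95% interval -0.29 to 0.39, limma adjusted p = 1).

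*Cfd* was too low in liver to be tested in the main fit. It had 0 reads in 7 of 10 livers, where a count of 0 allows up to 0.399 to 0.537 RPM by counting error alone, 1 and 2 reads in Fnip2T/T mice 658 and 659, and 43 reads in the Fnip2C/C mouse 591. In RPM, the mean levels of the shared members in WAT and liver were 842 and 3447 for *Rbp4*, 597 and 419 for *Adipor2*, 72.4 and 41.8 for *Adipor1*, and 31.9 and 22.9 for *Nampt*. The tables were normalized separately and hold different tissues, so these levels stand side by side without a test. The ranges of *Rbp4* and *Adipor1* did not overlap between the tissues, at 239 to 1212 and 2675 to 3896 for *Rbp4* and 61.7 to 85.8 and 38.4 to 44.7 for *Adipor1*, and those of *Adipor2* and *Nampt* did.

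**Figure D5:**
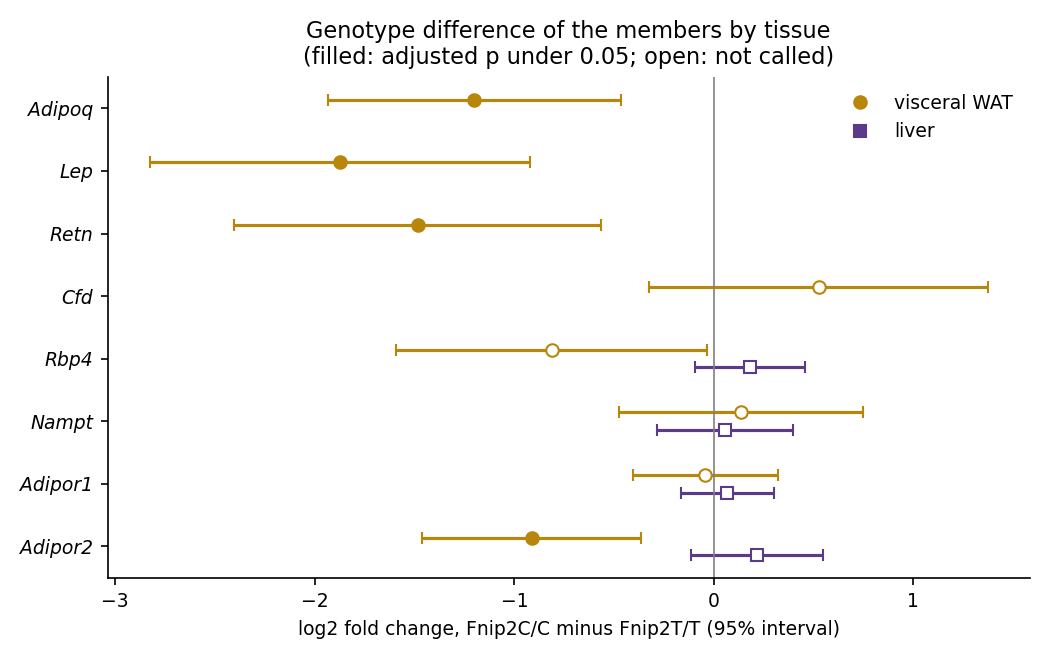
Log2 fold change of each member (horizontal axis, Fnip2C/C minus Fnip2T/T, with 95% intervals) in WAT (circles) and liver (squares), filled where the adjusted p was under 0.05. The WAT interval of *Adipor2* runs from -1.46 to -0.36 and its liver interval from -0.11 to 0.55, and *Adipoq*, *Lep*, *Retn* and *Cfd* have no liver value.

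A limma interaction term tested whether WAT and liver differed in their genotype effect, in 1 fit of all 19 libraries over 10404 genes. It could be tested for 4 members and was called for 1 of them, where 29.2% of all genes were called. *Adipor2* differed by -1.13 on the log2 scale (SE 0.31, 95% interval -1.76 to -0.50, limma adjusted p = 0.0087), from -0.91 in WAT and 0.22 in liver. *Rbp4* had a difference of -0.99 (SE 0.40, limma adjusted p = 0.0635), which was called under quantile normalization and without mouse 590 or mouse 599 but not otherwise. *Adipor1* had a difference of -0.11 (95% interval -0.48 to 0.26, limma adjusted p = 0.675) and *Nampt* one of 0.082 (95% interval -0.61 to 0.78, limma adjusted p = 0.875). In WAT 1 receptor gene was called and the other was not, but the difference between *Adipor1* and *Adipor2* in response to the genotype was not tested.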

How the data were processed

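RNA of visceral WAT (500 ng) and liver (250 ng) was sequenced with QuantSeq 3′ mRNA-Seq FWD, a stranded oligo(dT) protocol, on a NextSeq. The labels list 76 entries, 4 sequencing runs for each of 19 libraries from 13 mice, and the deposited tables hold 1 column per library. Samples were grouped by the genotype and mouse number in the labels, and 1 column that no label describes was not used. The submitters' processing notes name FastQC 0.11.9, HISAT2, SAMtools 1.12, HTSeq, DESeq2 and GRCm39. The authors deposited normalized counts, in unit a signal: read counts that were divided by 1 factor per library, separately for each tissue. Dividing by each library's step gave back whole reads for 100% of the values (within 0.01). Reads are not independent molecules, so intervals from counts cover counting error only. Libraries are 3′ reads, so a level reflects the 3′ end that was primed and, in degraded RNA, can shift between transcripts.

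Genes with a mean of at least 10 were tested with limma 3.58.1 in R 4.3.3 (trend and robust eBayes) on log2(value + 1), contrast Fnip2C/C minus Fnip2T/T, with genotype as the only term, 2-sided, called at a Benjamini-Hochberg adjusted p under 0.05. Fold changes are on the log2(value + 1) scale. Single members were also compared by exact permutation. The interaction used all 19 libraries. The mice giving both tissues pair the libraries by animal, and the deviations of the same mouse in both tissues correlated by between -0.203 and 0.156. edgeR 4.0.16 (quasi-likelihood) and DESeq2 1.42.0 on the recovered reads were alternatives, beside other pseudocounts, filters, scalings, library weights, a covariate that separates mice numbered below 610 from those above 630, and each mouse left out. On simulated data limma recovered 19% of 2-fold and 82% of 4-fold changes in WAT (12798 genes) and 72% and 95% in liver (11710 genes). The simulation changed 100 genes at each fold, whereas 4111 genes were called in the real WAT data. The Benjamini-Hochberg cutoff depends on that number, so these shares do not give the power of the real WAT test.

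The members and lists were chosen with earlier results of these data known. The genes named from a pathway list are the 3 with the lowest limma p in WAT, of which 1 is not reported here. Markers named are among the 3 most abundant of their list, while *C1qb*, *C1qc*, *mt-Nd4* and *mt-Rnr2* were picked with their values in view. The liver table's columns change labelled genotype 5 times in their order and the WAT table's once. The labels of neither tissue could be checked, and they were used as given. No protein sequences were used here.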

Additional observations from a re-analysis of the deposited data

Results flagged for a closer look

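*Adipor2* was flagged because the genotype effect in WAT and in liver differed by the test of the difference itself, with a value of -1.13 on the log2 scale (limma adjusted p = 0.0087). Of all genes, 29.2% were called in that test. The scalings to adipocyte markers, where *Adipor2* in WAT was at -0.045, -0.17 and -0.23 and not called, were not applied to the interaction.

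*Cfd* was flagged for reads outside the main comparisons of the report: the liver of the Fnip2C/C mouse 591 had 38.9 normalized counts (43 reads), against at most 1.86 in the Fnip2T/T livers.

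Of 106 groups of 4 or 5 libraries, 5 held a library far from the rest by Dixon's criterion, which chance alone gives in about 1 of 20 groups, and none of them concerned a member. *Pnp* was 139 in the Fnip2C/C WAT of mouse 590, with the others at 69.3 to 80.8. *Leprot* was 399 in the Fnip2T/T WAT of mouse 608, with the others at 206 to 248. *C3* was 24583 in the Fnip2C/C liver of mouse 591, with the others at 30626 to 32447. *C1qtnf12* was 18.9 in the Fnip2C/C liver of mouse 590, with the others at 9.50 to 11.8, and 19.8 in the Fnip2T/T liver of mouse 607, with the others at 8.78 to 11.1.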

How the results depend on the processing

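Under the 15 alternatives that left out no mouse, between 2 and 5 members were called in WAT, and 2 only when libraries were scaled to summed adipocyte markers other than *Car3*. These counts do not always hold the same members or directions. In each scaling to adipocyte markers *Adipoq* and *Adipor2* were no longer called and *Cfd* was called higher. *Retn* was called there only with the geometric mean, and *Nampt* was called higher with the marker sum. Leaving out a mouse gave 2 (without mouse 638, which lost *Adipoq* and *Retn*) to 5 members in WAT (5 without mouse 590, where *Rbp4* was added) and 1 to 2 in the interaction, and quantile normalization gave 2 in the interaction, where *Rbp4* was added. *Lep* was called in WAT in all of these settings. The calls over all WAT genes moved as well, from 4111 of 12798 in the main fit to 3039 of 12772 without mouse 638. They were 4273 of 12835 without mouse 590 and 4888 of 12798 in the scaling without *Car3*. In the interaction, leaving out a mouse gave 2165 to 3352 genes, and quantile normalization gave 2847 of 10404. No setting called a member or any gene in liver. The cause of these changes was not tested.

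Some directions turned. For *Rbp4* in WAT it was 0.054 with the adipocyte marker sum. For *Adipor1* in WAT it was 0.82, 0.70 and 0.64 with the sum, the sum without *Car3* and the geometric mean of adipocyte markers, 0.091 with library weights, and between -0.12 and 0.026 when a mouse was left out. For *Nampt* it was -0.033 with library weights in WAT, between -0.079 and 0.34 without a mouse in WAT, between -0.031 and 0.16 without a mouse in liver, and between -0.23 and 0.29 without a mouse in the interaction. With the mouse number as a replicate block for the paired libraries, 2753 genes and 1 member were called in the interaction against 3033 and 1 without it, *Adipor2* stood at -1.15 (limma adjusted p = 0.01001), and no call of a member changed. *Cfd* had too few reads in liver to be tested. On simulated data with 100 genes changed at each fold, 2-fold changes in WAT were mostly missed.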
